A study of Homo sapiens with 2 samples.

Results

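The GIMAP gene cluster was described by the H3K27ac peaks called in a 350 kb window of chromosome 7, from position 150120000 to 150470000 of the hg19 build, in the leukaemia cell line LOUCY. Every peak that touched the window was taken. There were 19 such peaks of 52203 in the whole genome and 2564 on chromosome 7. The window was chosen by position and held the starts of the 7 GIMAP genes described here. RefSeq lists other genes, lncRNAs and pseudogenes among them, whose starts were not placed on the peaks unless stated. These were, in order along the chromosome, GIMAP8, GIMAP7, GIMAP4, GIMAP6, GIMAP2, GIMAP1 and GIMAP5. Acetylation of lysine 27 of histone H3 (H3K27ac) is a mark of active promoters and enhancers. LOUCY is an established human T-ALL line, grown from an acute leukaemia of T-cell precursors, and serves as a laboratory model of its immature forms. There was 1 H3K27ac library, set against 1 library of input DNA, chromatin of the same line taken without the antibody. The labels name no drug and no second line or culture, so the values describe these libraries and have no replicate check. The H3K27ac library had 54357332 tags after filtering and the input library had 71932640. The labelled cell type was not checked against marker genes, because no gene outside the GIMAP window was placed on the peaks.

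GIMAP proteins (GTPases of immunity-associated protein) are small GTP-binding proteins found mainly in lymphocytes, where they sit on internal membranes and act in the survival of T cells and B cells. Their genes lie side by side in mammals and arose by duplication of one another. In rats and mice, loss of Gimap5 shortens the life of peripheral T cells. The family is therefore of interest in a T-cell leukaemia, although H3K27ac marks chromatin and does not measure the RNA or protein of any member.

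The sequence at the starts of the genes was taken from RefSeq, GRCh38.p14, as the 250 bases before and the 50 bases from each start. All 7 members were matched by symbol. These coordinates are of another build than the peaks, and no position was converted. The 4 promoters that follow are those of GIMAP6, which had the highest fold enrichment at its start, GIMAP8, which had the widest peak at a start, GIMAP5, which had the weakest, and GIMAP4, which had none. Capitals mark the letters GGAAG or CTTCC, a form of the core that ETS-family factors recognise on either strand. Other forms of that core were not marked or counted.
GIMAP6 (chr7:150632336-150632635, minus strand): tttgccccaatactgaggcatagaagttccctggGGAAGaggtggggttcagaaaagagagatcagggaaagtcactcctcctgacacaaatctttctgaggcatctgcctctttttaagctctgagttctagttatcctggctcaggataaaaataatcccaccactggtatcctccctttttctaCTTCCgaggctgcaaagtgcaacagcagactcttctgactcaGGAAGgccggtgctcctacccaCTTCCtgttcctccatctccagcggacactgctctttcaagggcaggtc
GIMAP8 (chr7:150450380-150450679, plus strand): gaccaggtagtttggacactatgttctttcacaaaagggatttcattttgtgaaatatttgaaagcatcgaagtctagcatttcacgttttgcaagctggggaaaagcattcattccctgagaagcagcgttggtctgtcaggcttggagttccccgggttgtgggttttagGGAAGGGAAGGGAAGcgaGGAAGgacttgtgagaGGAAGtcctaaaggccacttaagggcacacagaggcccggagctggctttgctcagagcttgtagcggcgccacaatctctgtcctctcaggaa
GIMAP5 (chr7:150737168-150737467, plus strand): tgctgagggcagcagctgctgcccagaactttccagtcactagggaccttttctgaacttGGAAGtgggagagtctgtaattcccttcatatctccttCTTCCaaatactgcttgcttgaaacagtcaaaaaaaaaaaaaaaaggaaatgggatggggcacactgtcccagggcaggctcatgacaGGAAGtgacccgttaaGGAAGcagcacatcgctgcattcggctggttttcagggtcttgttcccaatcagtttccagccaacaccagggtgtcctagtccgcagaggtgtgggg
GIMAP4 (chr7:150567140-150567439, plus strand): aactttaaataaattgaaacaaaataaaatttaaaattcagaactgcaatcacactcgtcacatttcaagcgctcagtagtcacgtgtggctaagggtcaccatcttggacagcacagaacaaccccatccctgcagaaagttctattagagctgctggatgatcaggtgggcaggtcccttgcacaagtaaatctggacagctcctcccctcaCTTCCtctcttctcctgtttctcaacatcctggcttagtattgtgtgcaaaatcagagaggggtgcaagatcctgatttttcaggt

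Every one of the 7 promoters held these ETS letters, as did 71.9% of the 34796 different promoter sequences in the table. There were 4 copies in GIMAP6, 5 in GIMAP8, 4 in GIMAP5 and 1 in GIMAP4, and the other members held 3 (GIMAP2), 1 (GIMAP7) and 1 (GIMAP1). In GIMAP8 the first 3 of the 5 copies stood end to end. In all 7 promoters at least 1 copy lay within the 100 bases before the start, which was so in 36.5% of all promoters. That interval was chosen after the positions had been seen. GIMAP4, which had no peak at its start, held a copy that began 36 bases before it. None of the 7 held the SP/KLF letters GGGCGG, found in 44.9% of all promoters on either strand. None held the RUNX letters TGTGGT, found in 13.1%, the GATA letters AGATAA, found in 10.4%, or the TCF/LEF letters CTTTGA, found in 12.9%. The E-box CAGCTG was found in 1 member, GIMAP5 (17.9% of all promoters), and the E-box CAGGTG in 1 member, GIMAP4 (20.6%). CCAAT was found in GIMAP6 and GIMAP5 (34.6% of all promoters), and TATAAA in GIMAP7 (11.6%). A match is a run of letters and not a bound site.

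The GIMAP promoters were poor in CpG. They held between 3 and 8 CpG pairs in 300 bases, with a median of 4, against a median of 14 over all promoters (interquartile range 4 to 28). Their G+C content ran from 40.3% in GIMAP2 to 50.7% in GIMAP1, with a median of 49.7%, against 58.7% over all promoters. GIMAP8, with 8 CpG pairs, was the richest of the members, and even there the count was reached or undercut by 41.7% of all promoters.

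The promoters of GIMAP7, GIMAP2 and GIMAP1 had a run of 14 identical bases in common, shown in capitals with 10 bases on either side. The run is given in the direction of transcription for GIMAP7 and GIMAP1 and on the opposite strand for GIMAP2.
GIMAP7: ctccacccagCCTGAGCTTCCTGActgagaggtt
GIMAP2: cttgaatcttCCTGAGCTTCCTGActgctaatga
GIMAP1: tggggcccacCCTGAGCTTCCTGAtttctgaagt

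The run lay 52 to 39 bases before the start in GIMAP7, 57 to 44 in GIMAP2 and 60 to 47 in GIMAP1, and it holds a CTTCC. No other of the 34796 promoter sequences held it on either strand. Between GIMAP7 and GIMAP2 the match went on to 17 bases. No other pair of members had 12 or more identical bases in a row. These 3 genes were 3 of the 4 with a fold of 6 or more at the start, as given next. The fourth, GIMAP6, had the highest fold of them and did not hold the run. Whether the run goes with fold was not tested.

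H3K27ac was found at the starts of 6 of the 7 genes and not at GIMAP4. A peak counted when it came within 1 kb of the start, and the starts were given to the nearest 1 kb. The share was 85.7% (95% Wilson interval 48.7 to 97.4, which covers counting error only). Of positions taken every 1 kb along chromosome 7, 7.28% lay as near to a peak, and along all chromosomes 8.15%. Those positions are mostly not gene starts, so the comparison is with the chromosome and not with other genes. Fold enrichment, the ratio of ChIP pileup to the local input level that the authors' peak caller gives, was 6 or more at 4 of the 7 starts. That was 4 of the 6 starts with a peak. In the whole list 23.2% of peaks reached that fold. The list holds every called peak, and peaks at the starts of other genes were not singled out for comparison.

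**Figure D1:**
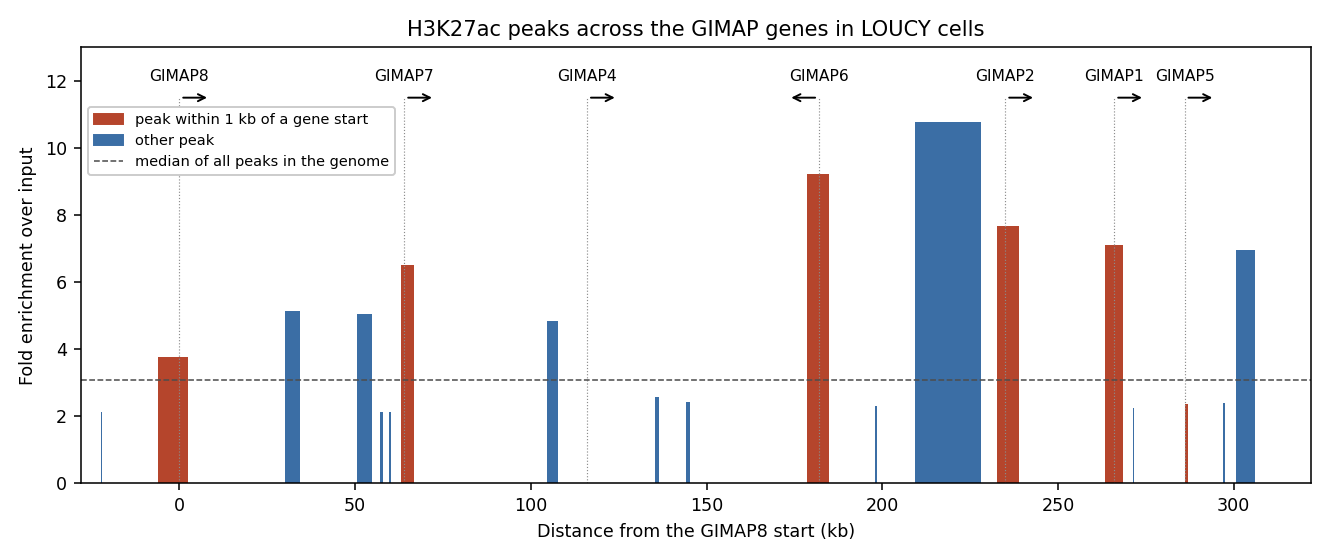
The 19 H3K27ac peaks of the GIMAP window, drawn to scale by distance from the GIMAP8 start (kb); the height of a bar is the fold enrichment over input of the peak, arrows mark gene starts and the direction of transcription, and the dashed line is the median of all peaks in the genome (3.08). The tallest and widest bar, with a fold of 10.8, lies between GIMAP6 and GIMAP2, and no peak lies at the GIMAP4 start.

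GIMAP6, which in mice and human cells takes part in autophagy, had the highest fold of the 6 starts with a peak. Its peak spanned 150326442 to 150332791, was 6350 bp wide and had a fold of 9.23, with a -log10 q of 62.6. It ranked 3853 of all 52203 peaks by fold. GIMAP6 is the only member on the minus strand, and the peak reached 2.79 kb upstream and 3.56 kb into the gene.

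GIMAP2, a GTPase found on lipid droplets, came second. Its peak (150380667 to 150386967, 6301 bp) had a fold of 7.67 and a -log10 q of 55.9, and reached from 2.33 kb upstream of the start to 3.97 kb downstream. GIMAP1, which mice need for their mature T and B cells, had a fold of 7.11 over 5011 bp (150411504 to 150416514), with a -log10 q of 42.6. That peak lay evenly about the start, with 2.51 kb downstream and about as much upstream. GIMAP7, which can speed up GTP hydrolysis by GIMAP2, had a fold of 6.50 over 3572 bp (150211175 to 150214746), with a -log10 q of 32.9. Of the peaks at these 4 starts, that of GIMAP7 was the narrowest and had the least sequence upstream, 0.825 kb against 2.75 kb downstream. Distances from a start carry the 1 kb rounding of the start.

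GIMAP8, the member with several GTP-binding domains in 1 protein, had a peak of another shape. It was the widest of the 6 at a start, 8385 bp (150142047 to 150150431), but had a fold of only 3.76 and a -log10 q of 8.01. Among the 1139 peaks of the genome within 10% of its width, the median fold was 6.88, and 5.97% had a fold as low. Most of the peak, 5.95 kb, lay upstream of the start. RefSeq lists the lncRNA LINC00996 next before GIMAP8, but it was not placed on this peak. With the starts as rounded, GIMAP8 was the only gene whose peak reached further upstream than downstream. At GIMAP1 and GIMAP6 a shift of the start within the rounding could reverse this.

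GIMAP5, the member best known for T-cell survival, had the weakest peak at a start. It was 803 bp wide (150434042 to 150434844) with a fold of 2.37 and a -log10 q of 1.91. In the whole list 48.2% of peaks had a fold below 3, and 78.4% of all peaks had a fold at least as high as that of GIMAP5. The peak began 0.042 kb after the rounded start, so whether it covers the start itself cannot be read at the 1 kb rounding. RefSeq also lists a GIMAP1-GIMAP5 gene with the same promoter sequence as GIMAP1, so the GIMAP1 peak lay at the start of both.

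GIMAP4, which in mice and rats bears on the death of T cells, had no peak within 5 kb of its start. The nearest peak (150252586 to 150255764, 3179 bp, fold 4.84) ended 8.24 kb upstream. RefSeq lists the pseudogene ALDH7A1P3 and the protein-coding gene LOC107986860 between GIMAP7 and GIMAP4, and neither was placed on this peak. The GIMAP4 start lay in a stretch of 27.5 kb without a peak, from 150255765 to 150283274. With 1 library, a level of the mark below the calling threshold cannot be told apart from its absence.

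**Figure D2:**
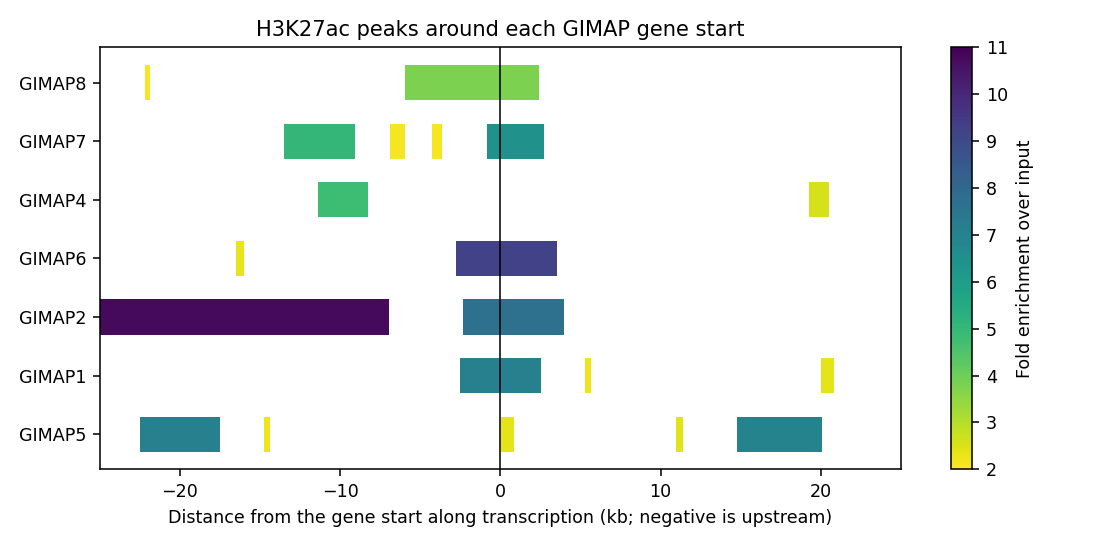
Peaks within 25 kb of each GIMAP gene start, 1 row per gene, with distance along the direction of transcription (kb, negative is upstream) and colour giving the fold enrichment over input. Peaks lie over the start in GIMAP8, GIMAP7, GIMAP6, GIMAP2 and GIMAP1, begin at it in GIMAP5 and leave it bare in GIMAP4; neighbouring genes can show the same peak in more than 1 row.

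The strongest and widest peak of the window lay at none of the GIMAP starts, the only starts that were placed on the peaks. It spanned 18810 bp between GIMAP6 and GIMAP2 (150357238 to 150376047), with a fold of 10.8 and a -log10 q of 80.7, and ended 6.95 kb upstream of the GIMAP2 start. It was the only peak of the window with a fold of 10 or more, and the only one of 10000 bp or more. Either was 5.26% of the peaks of the window, near the 5.21% and 4.37% of all peaks. The window was thus not rich in such peaks. By width this peak ranked 597 in the genome and 24 on chromosome 7, and by fold it ranked 1845 and 90. It held 26.1% of all the covered sequence of the window. Among the 275 peaks within 10% of its width the median fold was 8.36, and 76.7% had a fold no higher. RefSeq lists the lncRNA LOC124901774 and the pseudogene EIF2AP3 between GIMAP6 and GIMAP2. They were not placed on this peak, since their positions at hand are of the other build.

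A further 4 of the 12 remaining peaks away from GIMAP starts were 3179 to 5286 bp wide, with folds from 4.84 to 6.97. The other 8 were weak. The peak past GIMAP5 (150448769 to 150454054, 5286 bp) had a fold of 6.97, and its near edge lay 14.8 kb from the GIMAP5 start. RefSeq lists the pseudogene GIMAP3P next after GIMAP5, but the peak was not placed on it. A pair of peaks lay between GIMAP8 and GIMAP7, at 150178151 to 150182456 (4306 bp wide, with a fold of 5.15) and at 150198477 to 150202934 (4458 bp wide, with a fold of 5.04). The fourth was the peak upstream of GIMAP4. The 8 weak peaks had folds from 2.11 to 2.58, and the widest of them was 1269 bp. Of all 19 peaks, 9 had a fold below 3 (47.4%, against 48.2% of all peaks) and 9 had a -log10 q of 10 or more (47.4%, against 36.8%). The 9 with a fold below 3 include that of GIMAP5. The 95% Wilson interval of either share was 27.3 to 68.3%. It covers counting error only. Neighbouring peaks of the same library are not independent, so no difference from all peaks was tested. A fold of 6 or more was reached by 6 of the 19, or 31.6% (95% Wilson interval 15.4 to 54.0), against 23.2% of all peaks, which was not tested either.

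**Figure D3:**
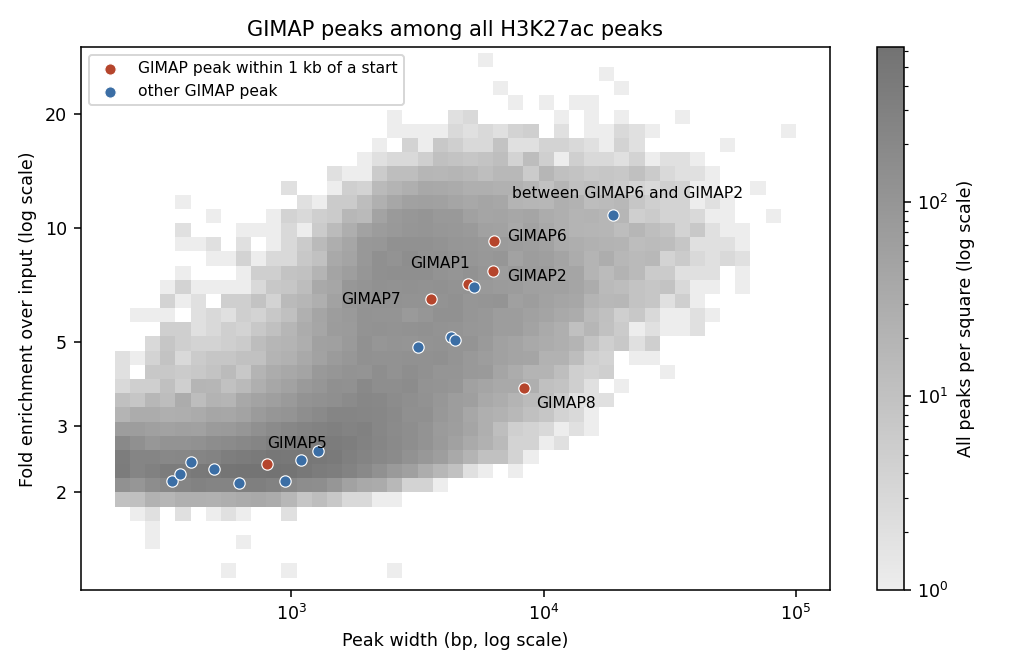
Width (bp, log scale) against fold enrichment over input (log scale) for the 19 peaks of the GIMAP window. Colour tells whether a peak lies within 1 kb of a GIMAP start, and grey squares give the number of all 52203 peaks. GIMAP8, 8385 bp wide with a fold of 3.76, lies at the low edge for its width, while the peak between GIMAP6 and GIMAP2 lies among the widest.

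The peaks of the window had a median fold of 3.76 and a median width of 3179 bp, against a median fold of 3.08 and a median width of 1670 bp for all peaks. Within the window, the 6 peaks at GIMAP starts had a median fold of 6.80 and a median width of 5656 bp. The 13 others had a median fold of 2.44 and a median width of 1093 bp. The ranges overlapped, from 2.37 to 9.23 at starts and from 2.11 to 10.8 elsewhere. The peaks at starts held 42.3% of the covered sequence.

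Coverage was uneven along the cluster. From the GIMAP6 start to the GIMAP2 start, 46.1% of 53 kb lay under peaks. Between GIMAP7 and GIMAP4 it was 11.4% of 52 kb, and between GIMAP4 and GIMAP6 it was 8.97% of 66 kb. The stretches between GIMAP8 and GIMAP7 (21.2% of 64 kb), GIMAP2 and GIMAP1 (20.9% of 31 kb) and GIMAP1 and GIMAP5 (14.4% of 20 kb) lay between. The 2 longest stretches without a peak, of 37.8 kb and 33.3 kb, fell on either side of GIMAP4.

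Over the whole window, peaks covered 71975 bp or 20.6%, against 4.24% of chromosome 7 and 4.91% of all chromosomes up to their last peak. When all chromosomes were divided into 8630 windows of 350 kb, the GIMAP window ranked 389 by covered share, and 4.51% of windows were covered at least as much. On chromosome 7 alone it ranked 15 of 453. The median window was covered to 2.05%, and the most covered to 56.7%. The number of peaks in the GIMAP window, 19, was reached by 6.87% of all 8630 windows, and its highest fold, 10.8, by 15.3%. The window thus stood higher by covered sequence than by its strongest peak. These are places in a ranking and not tests, and they count windows without genes.

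**Figure D4:**
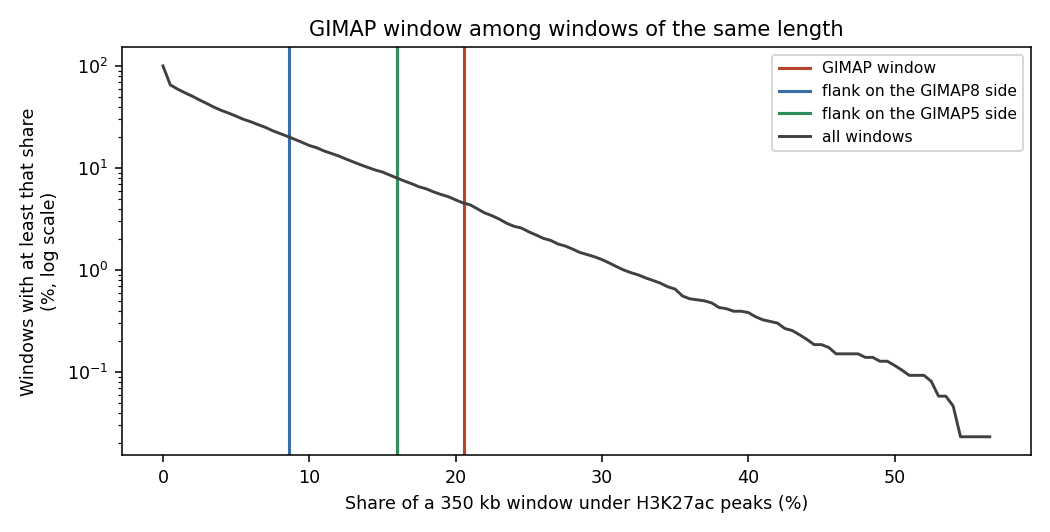
Share of 350 kb windows of the genome (%, log scale) in which H3K27ac peaks cover at least the share on the horizontal axis (%). Vertical lines mark the GIMAP window at 20.6%, the flank on the GIMAP8 side at 8.63% and the flank on the GIMAP5 side at 16.0%.

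Neither flank of the same length was covered as much. The flank on the GIMAP8 side held 16 peaks over 8.63% of its length, and its strongest peak (fold 12.4) was stronger than any of the window. The flank on the GIMAP5 side held 19 peaks over 16.0%, with a highest fold of 9.93. Its median fold, 4.47, was above the 3.76 of the GIMAP window. At the GIMAP8 end the first peak inside the border had a fold of 2.13 and the nearest outside 3.98. At the GIMAP5 end the last peak inside had a fold of 6.97 and the first outside 2.37.

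Joined across gaps of up to 12.5 kb, the peaks of the window fell into 10 domains and not into a single block. The highest ranked of these by the sum of fold times width spanned 40.9 kb (150346023 to 150386967), held 3 peaks and took in the GIMAP2 start. It ranked 599 of 25510 domains in the genome and was the only 1 of the 10 among the 1421 that a slope rule sets apart as large. The domain of GIMAP6 held only its own peak and ranked 3857, and that of GIMAP7 held 4 peaks and ranked 4684. The domain that holds the weak peak at GIMAP5 ranked 5825, with 3 peaks, of which the strongest was the 1 with a fold of 6.97 past the gene. The GIMAP1 domain ranked 6277 and the GIMAP8 domain 7159.

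The implied input level, which was worked out and not measured, was high at the strong peaks of the cluster. The peaks compared were not matched for width, 3572 to 18810 bp in the window against 284 to 98820 bp over all peaks of a fold of 6 or more. The input level implied by the fold and p-value of each peak had a median of 10.2 over the 6 GIMAP peaks with a fold of 6 or more (range 8.21 to 12.8), against 7.61 over all 12125 peaks of that fold (interquartile range 6.42 to 8.88). At the 9 weak GIMAP peaks the median was 5.15, against 5.52 over all peaks with a fold below 3. The highest level of the window, 12.8, was at GIMAP2. The implied pileup, which follows from fold and level and was not measured, was 105 at GIMAP2 and 102 at GIMAP6, although the fold of GIMAP2 was lower.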

How the data were processed

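H3K27ac ChIP DNA and input DNA of LOUCY were sequenced as 1 library each. The submitters' processing notes name Bowtie2, MACS2 and hg19. Per the file headers, MACS2 2.1.0.20140616 called broad peaks against input, with 84 bp tags, 204 bp fragments and 1 tag kept per position, which limits the height of strong peaks. This filter removed 13.2% of the ChIP library and 3.07% of the input library. Per the file headers, the larger of the libraries was scaled down to the other. The deposited fold is the ratio of ChIP pileup to local input. The deposited -log10 values are the caller's p-value and q-value. Each broad peak has 1 of each, and how its positions were combined is not stated. The deposited pileup was below 0 throughout and was not used.

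The window and the gene starts (hg19, to 1 kb) were given with the choice of the cluster. Their spacing matched that of the RefSeq promoter table within 1.01 kb. The implied input level was solved from fold, with 1 added to pileup and input, and the Poisson p. It is approximate for broad peaks. On simulated data for 52203 peaks, 100% of levels came back within 5%, with the formula itself taken as true. The simulated levels did not go as high as the 12.8 of GIMAP2, so the check does not cover that level. The lowest real level, 4.11, equalled the caller's background of 4.11. There was 1 library pair, so nothing was tested. The items named were the members, every peak of the window and neighbouring genes by name. Members and lists were chosen with earlier results of these data known. Python 3.11.15, pandas 2.3.3, numpy 2.4.6, matplotlib 3.10.9 and scipy 1.17.1 were used.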

Additional observations from a re-analysis of the deposited data

How the results depend on the processing

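The GIMAP window held 19 peaks as reported, 10 with a -log10 q of 5 or more and 9 with either a -log10 q of 10 or more or a fold of 4 or more, since these thresholds remove weak peaks. The covered share was 20.6% as reported, 18.8% and 16.4% with a -log10 q of 5 or more and of 10 or more, 16.4% with a fold of 4 or more, and 20.7% from the first to the last gene start. Genes with a peak at the start numbered 6 as reported and 4 to 6 under the alternatives, 5 with a peak over the rounded start itself and 4 with a -log10 q of 10 or more. Moving all starts by 0.5 kb either way, an alternative chosen after seeing the data, left 6. The share of windows covered as much was 4.51% as reported, 6.87% by number of peaks, 3.31% on chromosome 7 and 3.77% with a -log10 q of 10 or more. Stitching within 25000 bp gave 5 domains in place of 10, since a wider gap joins more peaks, and put the starts of GIMAP6, GIMAP2, GIMAP1 and GIMAP5 in 1 domain ranked 396. Stitching within 5000 bp gave 13 domains. The median fold of the window peaks was 3.76 as reported, 6.73 with a -log10 q of 5 or more and 6.97 with a -log10 q of 10 or more or a fold of 4 or more. The median width was 3179 bp as reported, 5148.5 bp with a -log10 q of 5 or more and 5011 bp with a -log10 q of 10 or more or a fold of 4 or more. With 19 peaks the 95% intervals of the medians as reported were wide, 2.31 to 6.97 for fold and 618 to 5286 bp for width. These intervals take the peaks as independent, which neighbouring peaks of the same library are not, and they hold no replicate error. No protein sequences were used here. No paired analysis was possible because each kind had a single library.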

Other observations

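The implied ChIP pileup is not a measured height. It was worked out from the fold and the implied input level of each peak, so peaks with a high input level rank higher by it than by fold, and the ranks add nothing independent to the levels. The peak between GIMAP6 and GIMAP2 ranked 611 by pileup and 1845 by fold. GIMAP2 ranked 1366 by pileup and 7309 by fold, GIMAP6 ranked 1548 and 3853, and GIMAP1 ranked 3728 and 8876. GIMAP8 ranked 21605 by pileup and 20821 by fold, and GIMAP5 ranked 41281 and 40936. The ranking was added after the input levels had been seen.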
